A study of Mus musculus with 22 samples.

Results

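The levels of 7 long noncoding RNAs were followed in RNA bound to tagged ribosomes of hippocampal field CA1 in mice. These were Malat1, Meg3, Miat, Rian, Snhg11, Sox2ot and Neat1, grouped under the name neuronal. The name is not a result for each: the coding part of Sox2ot was highest in the dendrite supernatants, and Neat1 could not be read from its row. The 7 RNAs were chosen by symbol, and all 7 have a row among the 29848 gene rows of the deposited tables. The animals were Camk2a-tTA/tetO-EGFP-L10a double transgenics on a C57BL/6 background, all of them, so that neurons with an active Camk2a promoter, mainly excitatory ones, carry the ribosomal protein L10a fused to EGFP and the antibody HtzGFP-19C8 pulls down their ribosomes. Dendrites and cell bodies (soma) were dissected from animals that were fear conditioned or stayed in the home cage, and RNA was read from the immunoprecipitate or from the unbound supernatant. There were 8 immunoprecipitates, 2 each of fear conditioned dendrite, home cage dendrite, fear conditioned soma and home cage soma, and 3 supernatants, namely fear conditioned dendrite 2, home cage dendrite 2 and fear conditioned soma 2. Each of these 11 libraries was sequenced in a paired-end and in a single-end run, which gives the 22 samples of the series, and both runs of a library count as 1 replicate. Ages of the animals and whether libraries came from separate animals are not given in the labels, so the p-values below may reflect technical spread alone.

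Long noncoding RNAs are transcribed and spliced much like messenger RNAs but have no long open reading frame, and several of the best known ones stay in the nucleus. Malat1 is a very abundant RNA of nuclear speckles, the bodies in which splicing factors gather, and Neat1 is the scaffold of paraspeckles, a different nuclear body. Meg3 and Rian come from the maternal chromosome in the imprinted Dlk1-Dio3 region, and Rian hosts small nucleolar RNAs and microRNAs. Miat, also called Gomafu, stays in the nucleus of neurons, in a compartment apart from speckles, and its repeated UACUAAC motif is bound by the splicing factor SF1. Snhg11 is a host gene of small nucleolar RNA that is strongly expressed in brain, and Sox2ot is a long transcription unit that contains the gene of the stem cell factor Sox2 within it.

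The sequences below set side by side the start sites of the 4 RNAs that were low in the dendrite immunoprecipitates, and the repeat for which Miat is known. Each promoter runs from 250 bases before to 50 bases after the start in RefSeq (GRCm38), 5′ to 3′ on the strand of the gene, and 5 of the 7 members matched an entry. Capitals mark, on either strand, TGACG (the core of the cyclic AMP response element), TATAAA (the TATA box), CCAAT (the box bound by NF-Y) and GGGCGG (the GC box bound by Sp1).
Meg3 promoter, GRCm38 chr12:109540746-109541045, plus strand: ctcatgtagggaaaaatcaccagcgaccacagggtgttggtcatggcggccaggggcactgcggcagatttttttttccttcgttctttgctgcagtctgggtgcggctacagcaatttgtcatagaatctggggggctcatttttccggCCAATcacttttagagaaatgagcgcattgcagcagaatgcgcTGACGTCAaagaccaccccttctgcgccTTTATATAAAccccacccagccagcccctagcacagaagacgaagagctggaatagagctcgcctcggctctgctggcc
Rian promoter, GRCm38 chr12:109603695-109603994, plus strand: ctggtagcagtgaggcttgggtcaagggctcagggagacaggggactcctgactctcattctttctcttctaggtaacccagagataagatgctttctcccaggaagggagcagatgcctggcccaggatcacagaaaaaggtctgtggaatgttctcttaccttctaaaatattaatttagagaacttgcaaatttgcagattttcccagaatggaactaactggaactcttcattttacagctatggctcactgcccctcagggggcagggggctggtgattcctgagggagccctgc
Miat promoter, GRCm38 chr5:112228899-112229198, minus strand: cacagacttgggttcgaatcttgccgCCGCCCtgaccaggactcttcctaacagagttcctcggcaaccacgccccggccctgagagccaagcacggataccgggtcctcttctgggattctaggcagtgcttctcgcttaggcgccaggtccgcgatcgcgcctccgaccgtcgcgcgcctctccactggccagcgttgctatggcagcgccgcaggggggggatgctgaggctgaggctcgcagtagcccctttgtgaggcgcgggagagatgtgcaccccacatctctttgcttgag
Snhg11 promoter, GRCm38 chr2:158375463-158375762, plus strand: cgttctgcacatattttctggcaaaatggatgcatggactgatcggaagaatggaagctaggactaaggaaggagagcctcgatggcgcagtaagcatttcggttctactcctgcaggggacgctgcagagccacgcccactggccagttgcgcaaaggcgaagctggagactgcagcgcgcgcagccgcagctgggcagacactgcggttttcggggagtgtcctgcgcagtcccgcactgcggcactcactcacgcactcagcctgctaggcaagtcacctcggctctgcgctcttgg
In the Miat transcript, as GENCODE M21 gives it for the minus strand of chromosome 5 in GRCm38, capitals mark the motif TACTAAC.
Miat-205, bases 5579 to 5639 of the transcript: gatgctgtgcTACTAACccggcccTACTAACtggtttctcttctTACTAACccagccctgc

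The Meg3 promoter shown, the first of 2 start sites in the table, held the full palindrome TGACGTCA, in which TGACG is read on both strands, together with a CCAAT box and TATAAA on both strands. The second Meg3 start site, at GRCm38 chr12:109545148-109545447 and not printed, held none of these letters. Of 32851 promoters of this length, 1.79% held TGACGTCA, 20.8% TGACG, 13.6% TATAAA, 37.4% CCAAT and 35.7% GGGCGG on either strand. Rian and Snhg11 held none of these letters within the window, and Miat held GGGCGG once. The Malat1 promoter, not printed, held TGACG 3 times. The Rian window had 0 CpG pairs and 49.3% G and C, whereas the Miat window had 25 CpG pairs and 64.3% G and C, against a median of 52.7% over all promoters. TACTAAC occurred 6 times in Miat-205, a transcript of 9163 bases. Among the longest transcripts of 29758 genes with at least 1000 bases, 7.67% held the motif, and 3 genes (0.0101%), Slc8a1, AC154442.1 and Miat, held at least 6 copies. Neat1 held it once, and the longest transcripts of the other 5 members did not hold it. These matches describe letters, not sites of binding.

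Levels are FPKM, fragments per kilobase of transcript and per M mapped, as the authors deposited them. The depth estimated from the spacing of low FPKM values was 5.69 to 35.1 M fragments in the paired-end and 0.513 to 10.6 M reads in the single-end runs. The authors' annotation cuts each transcript in a coding part, which takes in the first bases of the 3′ UTR, and the remainder of that UTR. On a noncoding RNA this division is only formal. Malat1, Miat and Neat1 lie wholly in the coding part, whereas Meg3, Rian, Snhg11 and Sox2ot have a segment in each. Between libraries, FPKM were divided by a median-ratio size factor (scaled FPKM), and a gene whose scaled FPKM averaged 1 or more was compared on log2(scaled FPKM + 1). By this minimum the coding part of 4 members (Malat1, Meg3, Miat and Snhg11) entered the comparisons of immunoprecipitates, those with supernatants also held Sox2ot, and the rest of the 3′ UTR added Meg3, Rian and Snhg11. Neat1 passed in neither. The size factor of the home cage soma 2 immunoprecipitate was 0.260, the lowest of the 8, and that of the fear conditioned dendrite 1 immunoprecipitate was 2.17, the highest. Many of the dendrite minus soma differences of members, and some of those for fear conditioning in soma, are also given without such a library. The soma differences of Meg3, Rian, Snhg11 and Miat from the supernatant are given only with both. Markers fixed for CA1 pyramidal neurons summed to between 81.3 and 554 scaled FPKM in the dendrite immunoprecipitates, 38.1 and 144 in the soma immunoprecipitates and 76.3 and 154 in the supernatants, and 3 to 12, 6 to 11 and 11 to 12 of the 12 were above 0. Among them Camk2a alone had 63.6 to 706 FPKM in the dendrite and 2.30 to 109 FPKM in the soma immunoprecipitates. Of the 7 markers that entered the comparison of these groups, 2 were higher and 5 lower in dendrites. Their median was -0.91, against -0.35 over all genes.

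Meg3, Rian, Snhg11 and Miat were all low in the dendrite immunoprecipitates and high in most of those of the soma. This difference in Miat was known when the members were chosen, and so the comparison of dendrite and soma is given as a description with no test. In the rest of the 3′ UTR, Meg3, which has been described as a tumour suppressor RNA and as a partner of Polycomb proteins, had 6.88 and 0.134 FPKM in the fear conditioned and 0.330 and 0.530 FPKM in the home cage dendrite immunoprecipitates. The soma immunoprecipitates held 482 and 112 FPKM of Meg3 after fear conditioning and 49.8 and 4.06 FPKM in the home cage. As deposited, the fear conditioned dendrite 1 library lay above the home cage soma 2 library, and these 2 libraries alone made the groups overlap. After scaling, Meg3 averaged 0.940 ± 1.29 FPKM in the dendrite and 106 ± 94.6 FPKM in the soma immunoprecipitates (SD, n = 4 each), with no overlap. The difference was -5.51 with a standard error of 1.21 on the log2(scaled FPKM + 1) scale, where the median of all 2197 genes was -0.55. In that part of the transcripts, the groups did not overlap with dendrites lower for 2.23% of genes and with dendrites higher for 1.05%. Meg3, Rian and Snhg11 passed the expression minimum there through their soma levels, so nothing is read from how many of them lay on that side. As deposited, the groups overlapped for all 3, and dendrites were lower with no overlap for 0.483% of genes.

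Rian had 16.3 and 0.172 FPKM in the fear conditioned and 0.226 and 6.69 FPKM in the home cage dendrite immunoprecipitates. In the soma immunoprecipitates Rian reached 437 and 101 FPKM after fear conditioning and 71.0 and 1.60 FPKM in the home cage. Its home cage soma 2 library therefore lay below 2 dendrite libraries as deposited, and scaling, which raised that soma library most, separated the groups. The scaled difference was -4.47 with a standard error of 1.36. The coding part of Rian held little in the paired-end run, at most 1.40 FPKM in any immunoprecipitate, and did not pass the expression minimum. The runs disagreed there. The single-end run gave 58.0 FPKM in home cage soma 1 and 49.5 FPKM in fear conditioned soma 1, against 0.230 and 0.768 FPKM in the paired-end run. In the single-end run that part passed the minimum and differed by -3.66 with a standard error of 1.19. Meg3 and Rian, neighbours on chromosome 12 in mm9 (Meg3 110779203 to 110809939, Rian 110842152 to 110899921, both on the plus strand), took similar levels in 3 of the 4 soma immunoprecipitates and stood further apart in home cage soma 2, with 1.60 FPKM of Rian and 4.06 FPKM of Meg3. In the supernatants, Rian was at 28.1 to 37.1 FPKM and Meg3 at 1.69 to 8.38 FPKM.

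Snhg11 had 23.0 and 0.141 FPKM in the fear conditioned and 0.0513 and 0.110 FPKM in the home cage dendrite immunoprecipitates, in the rest of the 3′ UTR. In the soma immunoprecipitates it had 110 and 81.8 FPKM after fear conditioning and 53.3 and 12.1 FPKM in the home cage. The fear conditioned dendrite 1 library was thus far above the other 3 dendrite libraries, which all stayed below 1 FPKM. Scaled Snhg11 averaged 2.45 ± 4.74 FPKM in the dendrite and 71.2 ± 36.3 FPKM in the soma immunoprecipitates (SD, n = 4 each), a difference of -5.11 with a standard error of 1.19. In its coding part, Snhg11 had 9.11, 0, 0.254 and 0.489 FPKM in the dendrite immunoprecipitates (fear conditioned 1 and 2, home cage 1 and 2). The soma immunoprecipitates of the same order held 121, 57.4, 271 and 0 FPKM in that part. The groups overlapped only through the home cage soma 2 library, which is listed at 0, and the difference was -4.41 with a standard error of 1.63.

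Miat was low in every dendrite immunoprecipitate. Its coding part, the whole of the annotated RNA, had 0.195 and 0.00564 FPKM in the fear conditioned and 0.0372 and 0.0180 FPKM in the home cage dendrite immunoprecipitates. From the estimated depth and the longest model of 8760 bases, these values stand for about 36.1, 0.9, 1.9 and 2.8 fragments. The soma immunoprecipitates had 33.0 and 7.58 FPKM after fear conditioning and 6.20 and 0.322 FPKM in the home cage, about 5501, 1982, 732 and 39.9 fragments. Every soma library was above every dendrite library, as deposited and after scaling, and in the single-end run as well. In the single-end run this rested on very few reads. Home cage soma 2 had 0.0740 FPKM, about 2.8 reads, and home cage dendrite 1 had 0.0480 FPKM, about 0.9 reads. Of all genes in the coding part, 1.86% were separated with dendrites lower and 1.64% with dendrites higher after scaling, and 0.405% with dendrites lower as deposited. In the single-end run dendrites were lower with no overlap for 2.97% of genes after scaling and 1.65% as deposited. Miat also passed the expression minimum through its soma levels and was chosen with this difference known. Nothing is therefore read from its place among these shares. The scaled difference of Miat was -2.98 with a standard error of 0.94, and since its dendrite levels lay far below the added 1 FPKM, this scale understates the fold.

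Meg3 in the coding part is listed at 0 in all 4 dendrite immunoprecipitates and at 5.05, 0.784, 46.3 and 0 FPKM in the soma immunoprecipitates (fear conditioned 1 and 2, home cage 1 and 2). The difference in that part was -2.34 with a standard error of 1.18. The single-end run gave a larger one, -5.55 with a standard error of 1.12, with 145, 30.6, 113 and 7.28 FPKM in the soma libraries of the same order. For the rest of the 3′ UTR, the single-end run gave -5.77 for Meg3, -4.64 for Rian and -4.62 for Snhg11, with standard errors of 1.21, 1.54 and 1.22. For Rian the single-end groups overlapped as deposited and after scaling, since home cage soma 2 is listed at 0 and fear conditioned dendrite 2 had 0.657 FPKM. The single-end runs repeat the same libraries and add no replicate.

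**Figure D1:**
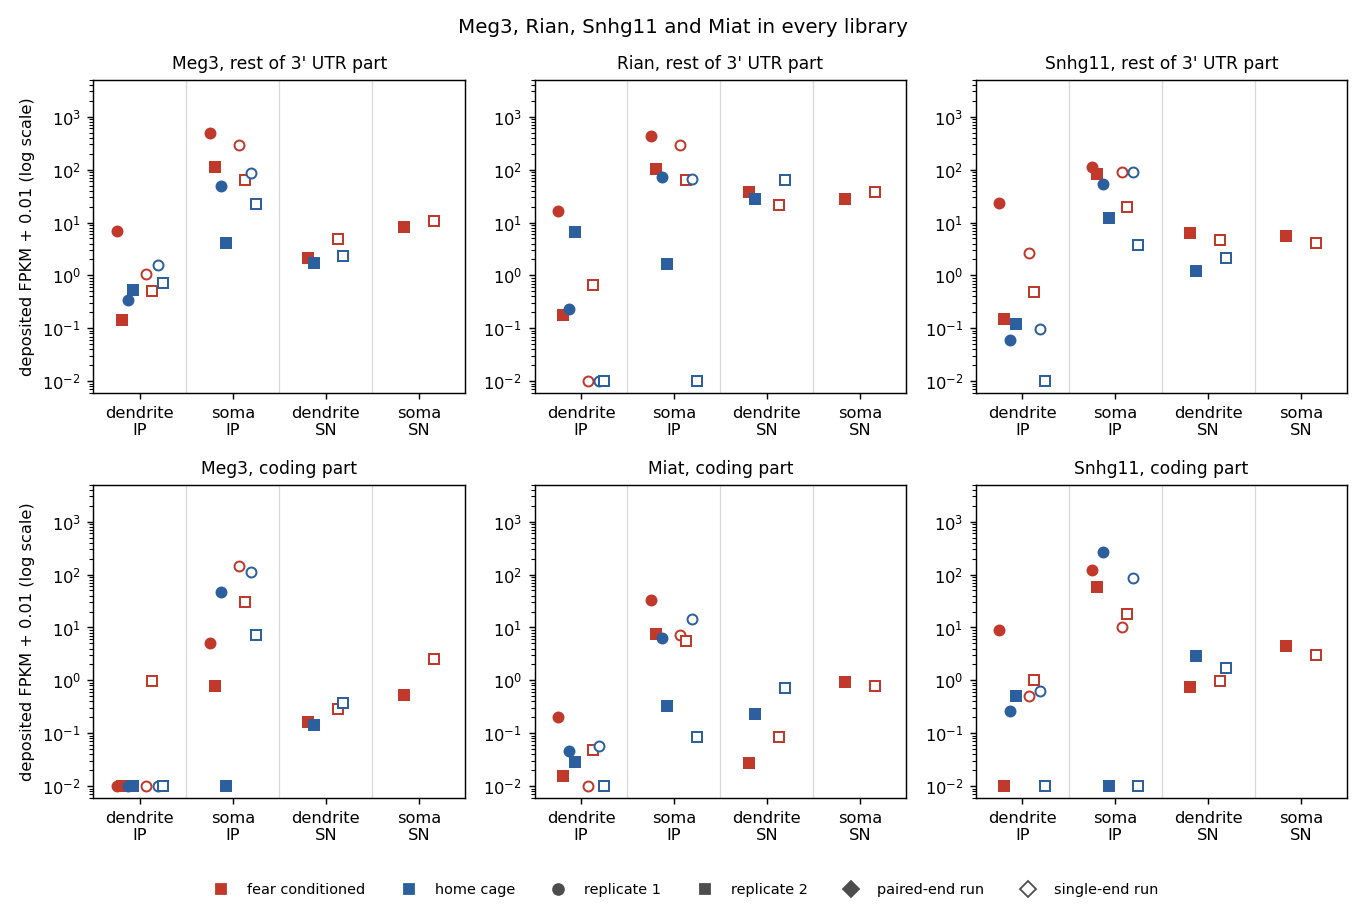
Deposited FPKM plus 0.01 on a log scale for Meg3, Rian, Snhg11 and Miat in the dendrite and soma immunoprecipitates (IP) and supernatants (SN); each point is a library, filled for the paired-end and open for the single-end run, and points at the bottom are listed at 0. The dendrite IP points lie below most soma IP points in all 6 panels, with the fear conditioned dendrite 1 library highest among the dendrite IP of the paired-end run (all 4 are at 0 for Meg3 in the coding part) and the home cage soma 2 library lowest among the soma IP.

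Malat1 was the most abundant member in every library of the paired-end run and, in the coding part, had the highest FPKM of all genes in both fear conditioned soma immunoprecipitates. It had 496 and 130 FPKM in the fear conditioned and 425 and 285 FPKM in the home cage dendrite immunoprecipitates, where it ranked between 6 and 60 among genes. In the soma immunoprecipitates it had 2042 and 583 FPKM after fear conditioning and 370 and 162 FPKM in the home cage. Dendrite and soma libraries overlapped, and Malat1 was among the 60 highest genes of both compartments. Scaled Malat1 averaged 236 ± 129 FPKM in the dendrite and 842 ± 598 FPKM in the soma immunoprecipitates (SD, n = 4 each). The difference was -1.82 with a standard error of 0.77, against a median of -0.35 over all 3057 genes. Without scaling it was -0.80, while the median of all genes was then 0.12.

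**Figure D2:**
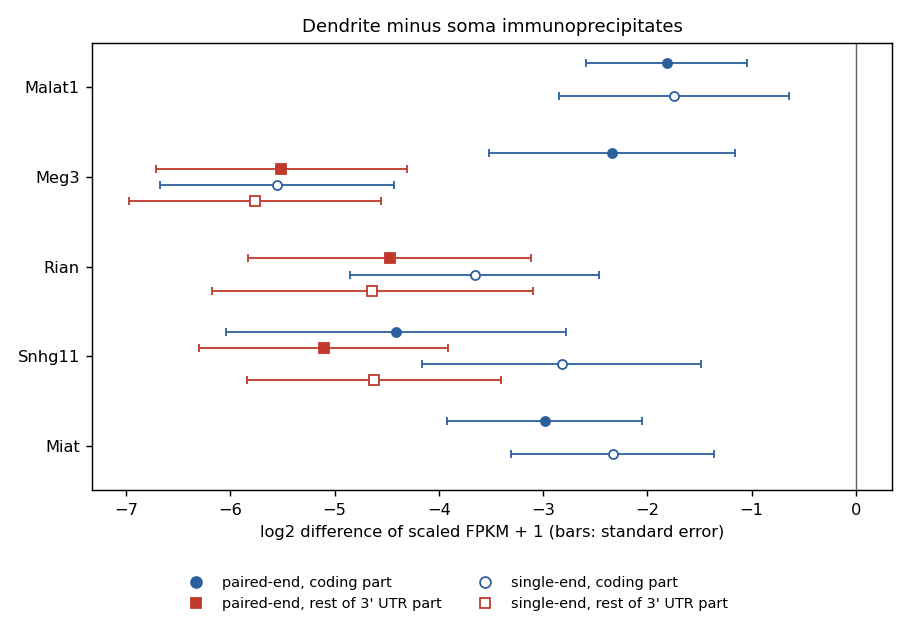
Dendrite minus soma immunoprecipitates on the log2(scaled FPKM + 1) scale with standard errors, for the 5 members with a value, in each run and part of the transcript. All points lie below 0, from -1.74 for Malat1 in the single-end run to -5.77 for Meg3 in the rest of the 3′ UTR.

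Without the fear conditioned dendrite 1 library, the differences in the rest of the 3′ UTR were -5.82 for Meg3, -5.04 for Rian and -5.76 for Snhg11. Without the home cage soma 2 library they were -6.25, -5.60 and -5.51 in the same order. In the coding part, leaving out fear conditioned dendrite 1 gave -2.90 for Miat and -2.22 for Malat1, and leaving out home cage soma 2 gave -3.79 for Miat and -1.75 for Malat1. Snhg11 in the coding part, -6.76 without home cage soma 2, and Meg3, -4.12 without it, each moved by over 1.5 times. Without home cage soma 1, which had the most of both, Snhg11 was at -2.20 and Meg3 fell under the expression minimum. In tissue dissections, fewer cells of a type and less RNA per cell cannot be told apart. The dendrite immunoprecipitates also held more of the RNA that marks astrocytes, support cells that lie between dendrites. The summed level of all 15 astrocyte markers was 153 to 275 scaled FPKM in the dendrite and 6.74 to 65.1 scaled FPKM in the soma immunoprecipitates, and none of the 15 was at 0 in all libraries of either. Of the 10 that entered the comparison, 10 were higher in dendrites and 0 passed the test. Their part in the differences of the long noncoding RNAs was not tested.

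Genes related to these RNAs by function were set beside them, from lists drawn up with earlier results of these data known. Of 70 other long noncoding RNAs, 36 had a row and 6 entered the comparison of dendrite and soma, of which 2 were higher, 4 lower and 0 passed the test, with a median of -0.18. Rmrp, the RNA of a ribonuclease that processes ribosomal RNA, differed by -1.92 with a standard error of 1.08. Its level was 445 FPKM in home cage soma 2 and at most 189 FPKM in the other soma immunoprecipitates. Rpph1, the RNA of ribonuclease P, differed by -0.10 with a standard error of 0.95. Of 17 mRNAs known to be held back in the nucleus, 7 entered, of which 6 were lower in dendrites, with a median of -1.15 and 0 past the test. They included Ddx5, an RNA helicase, at -1.65 with a standard error of 1.08, and Ogt, the enzyme that adds N-acetylglucosamine to nuclear proteins, at -1.90 with a standard error of 1.14. Ccnl2, a cyclin of nuclear speckles, was the one on the other side, at 0.98 with a standard error of 1.00. Of 22 paraspeckle proteins 13 entered, 6 higher and 7 lower with a median of -0.62. Of 31 speckle and splicing proteins 19 entered, 10 higher and 9 lower with a median of 0.07, and again 0 passed. The median of all genes in this comparison was -0.35, so most genes were lower in dendrites, and nothing is read from the counts of these lists. Over all 3057 genes, limma called 0 (0% of genes tested) at an adjusted p of 0.05, and 151 had an unadjusted p under 0.05. In the Dlk1-Dio3 region, 8 of the 9 listed genes had a row and 1, Meg3, entered the coding part. Mirg, the microRNA host downstream of Rian, had 3.08 FPKM in home cage soma 1 and at most 0.0463 FPKM in any other library in the coding part of the paired-end run. It was not confined to that library elsewhere: the single-end run gave 8.49 FPKM in fear conditioned soma 1, 8.16 FPKM in home cage soma 1 and 5.20 FPKM in fear conditioned dendrite 2 immunoprecipitates.

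Fear conditioning, in which animals learn to associate a neutral stimulus with an aversive one, left no member past the test in either compartment. Limma with Benjamini-Hochberg adjustment over all genes called 0 of 3057 genes (0%) in dendrites and 0 of 3057 (0%) in soma, where 102 and 250 genes had an unadjusted p under 0.05. The count in soma rested on single libraries, since 90 genes were called without home cage soma 2, 170 without fear conditioned soma 1 and 154 without fear conditioned soma 2. The median difference of all genes was 0.10 in dendrites and 0.52 in soma, and 0.47 and 1.21 without scaling. The members were chosen with results of these data known, so their p-values are no independent evidence. Scaled Malat1 averaged 152 ± 108 FPKM in fear conditioned and 320 ± 102 FPKM in home cage dendrite immunoprecipitates (SD, n = 2 each), a difference of -1.24 with a standard error of 1.09 (limma adjusted p = 1). In soma it averaged 1047 ± 950 FPKM after fear conditioning and 636 ± 20.6 FPKM in the home cage (SD, n = 2 each), a difference of 0.34 with a standard error of 1.09 (limma adjusted p = 0.956). After scaling, 1 of the 2 fear conditioned soma libraries was above and 1 below both home cage libraries, and leaving out the higher gave -0.68 and the lower 1.44. As deposited, both fear conditioned soma libraries were above both home cage ones. Without scaling the soma difference of Malat1 was 2.15, where the median of all genes was 1.21.

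Scaled Miat averaged 16.3 ± 16.2 FPKM in fear conditioned and 6.07 ± 6.84 FPKM in home cage soma immunoprecipitates (SD, n = 2 each), and the difference was 1.33 with a standard error of 1.32 (limma adjusted p = 0.672). With 1 library left out, the Miat difference was 0.10 (home cage soma 2), 0.25 (fear conditioned soma 1), 2.54 (home cage soma 1) or 2.48 (fear conditioned soma 2). Its dendrite levels were too low for a difference to be detectable. The soma differences of Meg3 and Snhg11 depended on the part of the transcript. They were -1.69 and 1.52 in the coding part, with standard errors of 1.67 and 2.30 and limma adjusted p of 0.668 and 0.817. They rested on single libraries: without home cage soma 2 they were -4.98 for Meg3 and -2.96 for Snhg11, and without home cage soma 1 Snhg11 was at 6.08. Leaving out fear conditioned soma 1 gave -2.56 for Meg3 and 0.84 for Snhg11, and leaving out fear conditioned soma 2 gave -0.80 for Meg3 and 2.23 for Snhg11. For the remainder of the 3′ UTR they were 1.04 and -1.05, with standard errors of 1.70 and 1.69 and limma adjusted p of 0.825 and 0.822. Rian, in the rest of the 3′ UTR, differed by 1.28 in soma and 0.03 in dendrites, each with a standard error of 1.92, and limma adjusted p were 0.80 and 1. The difference between the compartments in the effect of training did not pass for any member either. For Malat1 it was -1.57 with a standard error of 1.54 (limma adjusted p = 0.725), where 0 of 3057 genes (0%) were called; for the remainder of the 3′ UTR it was 1 of 2197 (0.0455%).

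As deposited, Malat1 was higher in the immunoprecipitates than in the supernatants. The supernatants held 73.1 FPKM (fear conditioned dendrite 2), 45.8 FPKM (home cage dendrite 2) and 73.0 FPKM (fear conditioned soma 2), all below the lowest of the 8 immunoprecipitates, which had 130 FPKM. In the single-end run the immunoprecipitates had 54.6 to 626 FPKM and the supernatants 45.7 to 54.0 FPKM, again with no overlap. As deposited, the immunoprecipitates were higher with no overlap for 0.724% of genes in the paired-end and 0.32% in the single-end run. After scaling, the paired-end groups overlapped for Malat1, with 73.2 to 1508 scaled FPKM in the immunoprecipitates and 38.0 to 85.4 in the supernatants. The difference averaged over dendrite and soma was 2.45 with a standard error of 0.86 (limma adjusted p = 0.999), a comparison in which 1 of 3041 genes (0.0329%) was called. It was 2.09 with a standard error of 1.02 in dendrites and 2.82 with a standard error of 1.37 in soma, where limma adjusted p were 0.976 and 0.999. Interneurons are inhibitory cells in which the Camk2a promoter is largely silent. In the coding part of the paired-end run, their markers summed to less in the immunoprecipitates, with no overlap. Among single genes of that part, 1.32% were lower in the immunoprecipitates with no overlap after scaling. The 13 markers summed to 0.586 to 18.3 scaled FPKM in the dendrite and 0 to 11.1 in the soma immunoprecipitates, and to 33.9 to 50.8 in the supernatants. Pvalb and Calb2 were at 0 in all 8 immunoprecipitates there. The 6 markers that entered were all lower in the immunoprecipitates on average, with a median of -1.35 against 0.05 over all genes. Single markers could overlap. Gad2 had 15.5 FPKM in the home cage dendrite 2 immunoprecipitate and at most 8.11 FPKM in the supernatants. Cck in the rest of the 3′ UTR had 7964 FPKM in the fear conditioned soma 2 immunoprecipitate and 423 FPKM in the soma supernatant. The part of other cell types in these differences was not tested.

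In the rest of the 3′ UTR, scaled levels of Meg3 and Snhg11 were above the soma supernatant in all 4 soma immunoprecipitates, though neither difference passed the test. The share of all genes in this order was not computed, and there is 1 soma supernatant, so nothing is read from the order. As deposited, Meg3 in home cage soma 2 lay below that supernatant. There, the soma immunoprecipitates had 4.06 to 482 FPKM of Meg3 and the soma supernatant 8.38 FPKM. Snhg11 had 12.1 to 110 FPKM in the soma immunoprecipitates and 5.66 FPKM in the soma supernatant. The soma differences were 3.98 with a standard error of 1.71 for Meg3 and 4.17 with a standard error of 1.86 for Snhg11, and both had a limma adjusted p of 0.998. In the coding part the differences were smaller, 1.26 with a standard error of 1.83 for Meg3 and 2.77 with a standard error of 2.51 for Snhg11 (limma adjusted p = 0.999 for each). Both genes are listed at 0 there in home cage soma 2, below the soma supernatant at 0.511 FPKM of Meg3 and 4.49 FPKM of Snhg11. In the comparison for the remaining 3′ UTR, which has 1 soma supernatant, 1 of 2374 genes (0.0421%) was called. The dendrite differences in that remainder were -0.21 for Meg3 and -0.48 for Snhg11, with standard errors of 1.28 and 1.39. Whether the difference from the supernatant was itself different between dendrite and soma was also tested, and gave -4.19 for Meg3, -4.75 for Rian and -4.64 for Snhg11, with standard errors of 2.14, 2.57 and 2.32 and limma adjusted p of 0.999 for each. Miat likewise had 0.322 to 33.0 FPKM in the soma immunoprecipitates and 0.905 FPKM in the soma supernatant, and the difference was 2.14 with a standard error of 1.30 (limma adjusted p = 0.999).

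In dendrites, Rian followed another order. In the dendrite samples, it had 0.172 to 16.3 FPKM in the immunoprecipitates and 37.1 and 28.2 FPKM in the fear conditioned and home cage supernatants. The dendrite immunoprecipitates were lower with no overlap, which was so for 20.2% of genes as deposited in that part and is therefore common. The difference was -2.66 with a standard error of 1.54 (limma adjusted p = 1) and 0 of 2374 genes (0%) were called. In the single-end run the dendrite supernatants again held more, 21.8 and 62.9 FPKM, while the immunoprecipitates had 0.657 FPKM in fear conditioned dendrite 2 and 0 in the other 3. In soma, Rian differed from the supernatant by 2.09 with a standard error of 2.06, the same sign as Meg3, Snhg11 and Miat. The single-end run gave 0.34 there with a standard error of 2.54.

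**Figure D3:**
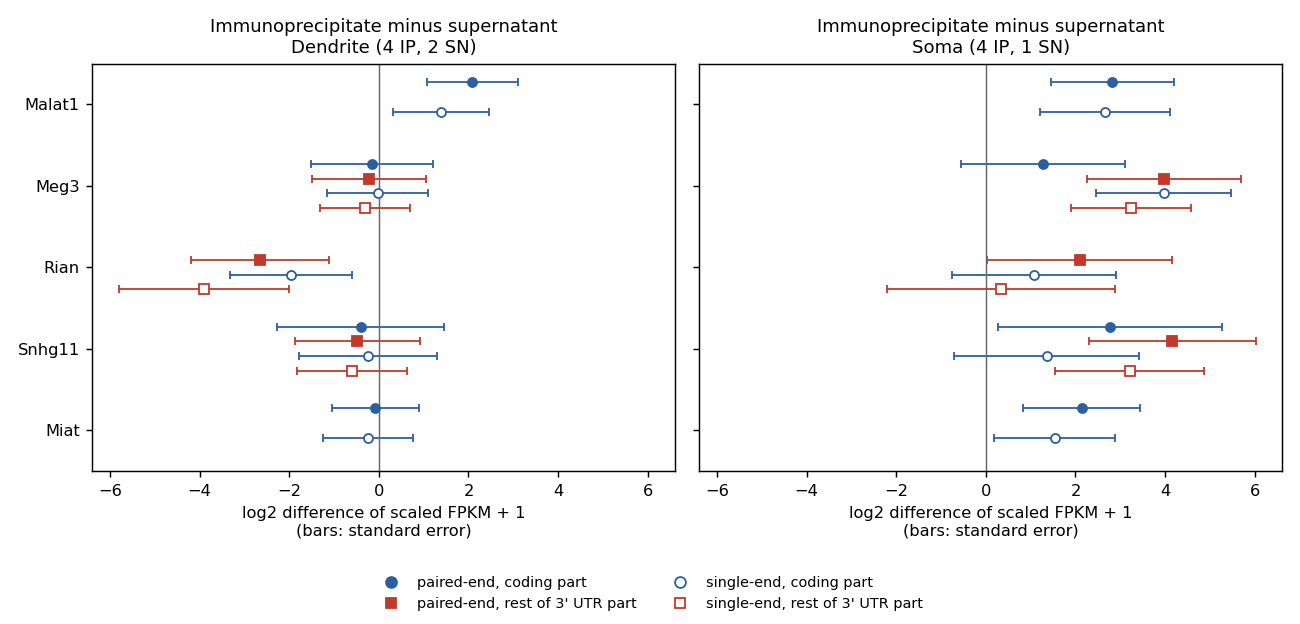
Immunoprecipitate (IP) minus supernatant (SN) on the log2(scaled FPKM + 1) scale with standard errors, in dendrite and soma, in each run and part of the transcript. Malat1 lies above 0 in both compartments, and Rian below 0 in dendrite and above 0 in soma. Meg3, Snhg11 and Miat lie near 0 in dendrite and above 0 in soma, and no difference passed the test.

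Sox2ot in its coding part was highest in the dendrite supernatants. This segment of 897 bases had 63.9 FPKM in the fear conditioned dendrite 2 and 3.75 FPKM in the home cage dendrite 2 supernatant. The soma supernatant had 0.111 FPKM, the fear conditioned dendrite 1 immunoprecipitate 1.08 FPKM, and the other 7 immunoprecipitates are listed at 0. The value of 63.9 FPKM stands for about 2009 fragments, whereas the rest of the same transcript, 2073 bases, had 0.444 FPKM there, about 32.3 fragments. The single-end run of that library gave 4.71 FPKM in the coding part. One segment of 1 run of 1 library therefore carries the level. The immunoprecipitates minus supernatants of dendrites gave -3.71 with a standard error of 0.91 (limma adjusted p = 0.872), where 2 of 3041 genes (0.0658%) were called. Without the fear conditioned dendrite 2 supernatant, the coding part of Sox2ot fell under the expression minimum. Sox2, which lies inside the Sox2ot span in mm9, had in its coding part 0.807, 0.323 and 0.0545 FPKM in the fear conditioned dendrite 2, home cage dendrite 2 and fear conditioned soma 2 supernatants. It had at most 0.317 FPKM in the dendrite immunoprecipitates and is listed at 0 in all 4 soma immunoprecipitates in that part, but its remaining 3′ UTR had 0.477 and 0.130 FPKM in the fear conditioned soma immunoprecipitates. Whether reads were counted by strand is not stated in the labels, and overlapping rows cannot be separated.

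Neat1 cannot be read from its own row. The authors' annotation holds a second row, AK148054, on the same strand of chromosome 19 in mm9, from 5842307 to 5845476 within Neat1 from 5842302 to 5845478, so that fragments from these bases can go to either row. The Neat1 row covers 3177 bases, the short isoform, while the longest GENCODE transcript has 20771 bases. In the dendrite immunoprecipitates Neat1 had 6.81 and 0.930 FPKM after fear conditioning and 1.64 FPKM and a value under 0.001 in the home cage. AK148054 had values under 0.001 in both fear conditioned dendrite immunoprecipitates and 17.4 and 15.5 FPKM in the home cage ones. In the soma immunoprecipitates AK148054 had 10.4 and 0.725 FPKM after fear conditioning and 24.5 and 3.49 FPKM in the home cage, and Neat1 was at most 0.534 FPKM. In the supernatants Neat1 had 0.748, 1.69 and 1.09 FPKM (fear conditioned dendrite 2, home cage dendrite 2, fear conditioned soma 2), and AK148054 was at 0.775 FPKM in home cage dendrite 2 and under 0.001 in the other two. Neat1 therefore has no level that can be compared between groups. In the single-end run Neat1 was above 0.001 FPKM in 3 of 11 libraries, and home cage soma 2 was one of them with 1.52 FPKM.

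**Figure D4:**
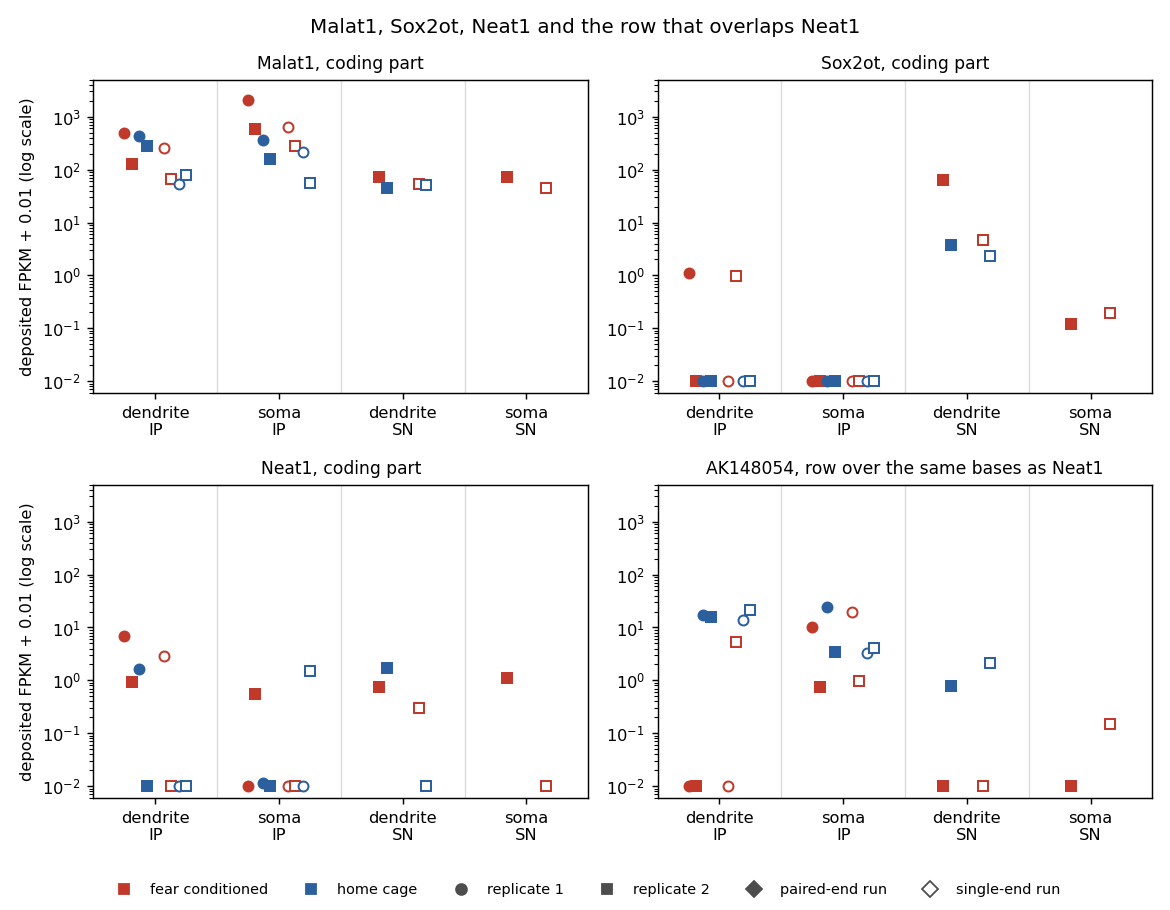
Deposited FPKM plus 0.01 on a log scale for Malat1, Sox2ot, Neat1 and AK148054, the row over the same bases as Neat1, in the immunoprecipitates (IP) and supernatants (SN); filled points are paired-end and open points single-end runs. Malat1 lies above all supernatants of the same run in all 8 immunoprecipitates. Sox2ot, shown for its coding part only, is high in the dendrite SN, and Neat1 and AK148054 scatter down to 0 in different libraries.

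Some short RNAs have rows of their own inside the members. The rows of Mir770 within Meg3 and of Mir341 and Mir370 within Rian are listed at 0 in both runs. Mir1906-1, within Meg3, is listed at 0 in all paired-end libraries but reached 6897 FPKM in the single-end run, on a row of 83 bases, where it was above 0 in 5 libraries. AF357355, a row of 57 bases within Rian, reached 3721 FPKM in 1 single-end library. A few reads on rows so short give a large FPKM, and these rows are not read as levels of the short RNAs. A longer row, AF357425, spans 3479 bases within Rian on the same strand. In the rest of the 3′ UTR it was above 0 in 6 paired-end libraries, with at most 2.87 FPKM. In the coding part it had 23.2 FPKM in 1 single-end library. How fragments were divided between it and Rian was not tested.

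By the distance between profiles over the 11 libraries, the root mean square difference of centred log2(scaled FPKM + 1), the genes most like each member were named, out of 3040 others. Nearest to Malat1 was Tardbp, the RNA-binding protein TDP-43, at 0.84, against a median of 2.03, and the next were AK043844 at 1.03 and Ppp1r15b, a regulatory subunit of the eIF2α phosphatase, at 1.08. Nearest to Miat were Plxna4, a semaphorin receptor, at 0.50, Plk2, an activity-induced kinase, at 0.60, and Trank1 at 0.64, against a median of 1.94. Tardbp had 8.45 and 0.284 FPKM in the fear conditioned and 4.48 and 4.74 FPKM in the home cage dendrite immunoprecipitates. It had 28.2 and 5.62 FPKM in the fear conditioned and 10.6 and 1.80 FPKM in the home cage soma immunoprecipitates, and 1.77 to 3.07 FPKM in the supernatants. Plxna4 had 25.0 and 4.85 FPKM in the fear conditioned and 2.12 and 0.357 FPKM in the home cage soma immunoprecipitates, and at most 0.676 FPKM elsewhere. Nearest to Meg3 in the coding part were Agpat6, Slc27a4 and Spen at 0.49, 0.50 and 0.55, and nearest to Snhg11 were Ddx26b, Sstr4 and Grm5 at 1.29, 1.41 and 1.42, where Meg3 came in place 5 and Miat in place 11. Nearest to Sox2ot were Lass2, BC114417 and Rab2B at 0.30, 0.50 and 0.52, each of which was highest in the fear conditioned dendrite 2 supernatant. Profiles share the same libraries, their depth and their size factors, and the distance is given as a description.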

How the data were processed

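Per the labels' protocols, the RNA was amplified (Nugen Ovation), treated with a nuclease, made into TruSeq libraries and size-selected. STAR 2.1.1d, Cufflinks 2.0.2, CASAVA 1.9 and the build mm9 are named in the submitters' processing notes without settings. The authors deposited FPKM, with a column for each library and transcript part, in a paired-end and a single-end table. Amplified RNA without molecular identifiers does not count molecules, and FPKM keep no counts, so no counting interval is given. Depth was estimated from the value of 1 read in genes with 1 transcript of at least 1500 bases, where 85.3 to 93.5% of low values lay within 0.15 reads of a whole number.

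The members, lists and tests were chosen with earlier results of these data known. Libraries were scaled by median ratios over genes above 0.001 FPKM in all of them. The minimum was a mean scaled FPKM of 1 and the pseudocount 1. limma 3.58.1 in R 4.3.3, with trended moderation and adjustment by Benjamini-Hochberg over all genes tested, was run on the 8 immunoprecipitates in 4 groups (residual df of 4). For the supernatants it was run on all 11 libraries, with a mean for each location and fraction and a term for behaviour (residual df of 6). Tests were two-sided and the code was tested on simulated data. The text names the 7 members, Sox2 and up to 4 genes of a list by mean level. It also names the 3 nearest profiles of each member with a mean of at least 1. AK148054, AF357425, Mirg and the short RNA rows were named for their position, after their values were seen. Replicate numbers do not mark a shared animal or day in the labels. Alternatives were other pseudocounts, minimums and scaling, the single-end table, the replicate number as a block and leaving out libraries; the rest of the 3′ UTR and robust moderation were chosen after seeing the data.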

Additional observations from a re-analysis of the deposited data

Results flagged for a closer look

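Within the 4 dendrite or 4 soma immunoprecipitates, 5 of the 20 sets of member values with any signal had 1 library separated from the other 3 by more of the range than Dixon's 95% limit; chance would flag about 5% of sets of normally distributed values. That share does not apply to values with many zeros: over all genes with any signal, 56.6% of 42209 such sets were separated in this way, so the members' count is no excess. In 3 of the 5 the other 3 libraries are at 0, which fixes the separation at its maximum. Fear conditioned dendrite 1 was the library in 3 of them: Rian in the coding part at 1.40 FPKM and Sox2ot in the coding part at 1.08 FPKM, with 0 in the other 3 dendrite libraries, and Snhg11 in the rest of the 3′ UTR at 23.0 FPKM, with under 1 FPKM in the other 3. Neat1 was at 0.534 FPKM in fear conditioned soma 2, with under 0.01 FPKM in the other soma libraries, on the row that shares its bases with AK148054. Sox2ot in the rest of the 3′ UTR was at 2.31 FPKM in fear conditioned soma 1 and at 0 in the other 3 soma libraries. The cause was not tested in any of them.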

How the results depend on the processing

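In the fear conditioning and supernatant comparisons, the ones in which members were tested, none passed limma's adjusted threshold under the alternatives run. The untested dendrite minus soma differences of Malat1, Meg3, Miat, Snhg11 and Rian (the last in the rest of the 3′ UTR) kept a negative sign in all of them. Counts of genes called moved, and the cause was not tested: with no expression minimum the comparisons of immunoprecipitate with supernatant called 402 genes in dendrite, 922 in soma, 1224 on average and 721 for the difference between them. The single-end table called 1 gene for dendrite against soma and 10, 10, 23 and 5 for the supernatant comparisons in that order. Without scaling, 1 gene was called for dendrite against soma and 1 for fear conditioning in soma. The 2 genes called for the dendrite supernatants became 1 with pseudocounts of 0.1 or 5, with a minimum of 5 or with the replicate number as a block. They became 0 in the rest of the 3′ UTR; the 1 called on average became 0 with a pseudocount of 5 or for that rest, and 2 with a minimum of 5. In that part 1 gene was called in soma against supernatant and 1 for the difference of fear conditioning between compartments.

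Leaving out 1 library gave 0 to 2 calls against the dendrite supernatants and 0 to 170 for fear conditioning in soma, where 90 genes were called without home cage soma 2, 170 without fear conditioned soma 1 and 154 without fear conditioned soma 2; fitted this way a lone library is assumed to vary like the other groups. No value against the soma supernatant exists without the 1 library that makes it. Deviations of libraries with the same number correlated at -0.00063 in the home cage and 0.0528 after fear conditioning. With 2 libraries in each group this cannot show whether libraries of the same number are paired. The main fit left the numbers out. Xist, a listed long noncoding RNA, had 22.5 and 5.98 FPKM in the home cage 1 immunoprecipitates (dendrite, then soma) and 0.217 and 0.0525 FPKM in home cage 2. After fear conditioning it had 34.3 and 59.9 FPKM in replicate 1 and 4.42 and 0.0992 FPKM in replicate 2. Whether libraries of the same number share animals was not tested.

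None of the following changes of sign was in a difference that passed the test. With the single-end table the fear conditioning difference became 0.57 for Malat1 and -0.023 for Miat in dendrite, -0.061 for Miat and -0.25 for Snhg11 in soma, and between compartments 0.55 for Malat1, 0.038 for Miat and 0.44 for Snhg11. In the rest of the 3′ UTR it became 1.04 for Meg3 and -1.05 for Snhg11 in soma, and -0.49 and 2.71 between compartments. With the replicate block the mean difference from supernatants became -0.49 for Meg3 and -0.44 for Snhg11, and with a pseudocount of 0.1 that of Sox2ot in soma became -0.54. Among fits without 1 library, the fear conditioning difference in soma ranged from -0.68 to 1.44 for Malat1 and from -2.96 to 6.08 for Snhg11, in dendrite from -0.028 to 0.083 for Miat and from -0.37 to 1.92 for Snhg11, and between compartments from -5.28 to 3.79 for Snhg11. The dendrite difference from supernatants ranged from -0.46 to 0.28 for Miat, from -1.49 to 0.64 for Snhg11 and from -0.64 to 0.31 for Meg3, and the soma difference of Sox2ot from -0.099 to 0.49.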
